A study of Homo sapiens with 12 samples.

Results

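On the short arm of chromosome 1, most genes in a run from RABGGTB to EVI5 stood higher in the GLI2_KO cells than in the WT cells, with and without paclitaxel. The run covers chr1:75786197-92792404 (GRCh38, GENCODE 29 gene ends), a span of 17.0 Mb. Its members are the rows of the deposited count table from RABGGTB through EVI5, without CCN1, TGFBR3, COL24A1, IFI44, IFI44L and symbols that start with GBP or DNAI, which took out 9 rows. That left 107 of the table's 25049 rows. Of these, 92 passed the filter on low counts and 46 had a mean of at least 5 CPM (counts scaled to library size with TMM factors) in at least 1 group. The run was selected on its higher counts in GLI2_KO than in WT in both treatments, so the genotype values of its members are descriptions and carry no test. The tests below concern paclitaxel, the difference between the genotypes in the paclitaxel effect, and genes outside the run.

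RNA with a poly(A) tail was sequenced from MDA-MB-231b cells, a bone-tropic derivative of the established human triple-negative breast cancer line MDA-MB-231 obtained by passing cells in athymic nude mice, through their bone marrow. The cells carried lentiviral CRISPR-Cas9 with a guide RNA to GLI2, a transcription factor of the Hedgehog pathway (GLI2_KO), or a non-targeted guide RNA (WT). They were kept for 2 days in DMSO, the solvent, or in 50 nM paclitaxel, a taxane that stabilises microtubules and stalls mitosis. The 4 groups are WT in DMSO, GLI2_KO in DMSO, WT in paclitaxel and GLI2_KO in paclitaxel, with 3 samples each; the labels do not say whether these were separate cultures, so the spread behind each p-value may be technical and covers these samples only. The sources used here do not say whether the GLI2_KO cells are 1 clone or a pool.

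Genes that lie side by side on a chromosome usually belong to unrelated pathways and answer to promoters of their own. Neighbours can still share a level, through a shared promoter, a shared chromatin domain or the number of copies of the chromosome segment that a cell carries. Cancer lines such as MDA-MB-231 carry many chromosome gains and losses, and subclones of one line can differ in them. The run holds genes of very different work: the catalytic beta subunit of the enzyme that attaches lipid to Rab proteins (RABGGTB), a kinase that fires replication origins (CDC7), subunits of the volume-regulated anion channel (LRRC8B, LRRC8C and LRRC8D), a general transcription factor (GTF2B) and an adaptor of NF-kappaB signalling (BCL10). No DNA copy number, chromatin or clone data were used here.

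Promoters are shown for 4 members whose shifts differ: DNAJB4, one of a trio of neighbours with small shifts; LRRC8B and LRRC8D, sister genes with a small and a middling shift; and LMO4, with a large one. Each line gives 250 bases before to 50 bases after the annotated start (RefSeq, GRCh38.p14), 5′ to 3′ on the gene's strand, with each CG dinucleotide in capitals. The windows lie at chr1:77978925-77979224 (DNAJB4), chr1:89524579-89524878 (LRRC8B), chr1:89820782-89821081 (LRRC8D) and chr1:87328630-87328929 (LMO4), all on the plus strand.
DNAJB4: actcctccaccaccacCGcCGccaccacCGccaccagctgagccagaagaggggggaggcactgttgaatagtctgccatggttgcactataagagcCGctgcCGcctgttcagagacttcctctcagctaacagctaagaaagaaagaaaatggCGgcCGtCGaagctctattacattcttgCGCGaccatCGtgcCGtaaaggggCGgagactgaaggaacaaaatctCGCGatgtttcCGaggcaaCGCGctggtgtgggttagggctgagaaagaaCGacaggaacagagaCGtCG
LRRC8B: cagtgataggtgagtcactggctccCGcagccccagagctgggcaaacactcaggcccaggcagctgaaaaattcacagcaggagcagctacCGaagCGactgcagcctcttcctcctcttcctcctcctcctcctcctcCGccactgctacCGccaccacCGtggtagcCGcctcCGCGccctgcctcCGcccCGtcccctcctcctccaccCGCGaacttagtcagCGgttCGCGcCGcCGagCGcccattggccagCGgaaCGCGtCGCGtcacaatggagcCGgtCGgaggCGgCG
LRRC8D: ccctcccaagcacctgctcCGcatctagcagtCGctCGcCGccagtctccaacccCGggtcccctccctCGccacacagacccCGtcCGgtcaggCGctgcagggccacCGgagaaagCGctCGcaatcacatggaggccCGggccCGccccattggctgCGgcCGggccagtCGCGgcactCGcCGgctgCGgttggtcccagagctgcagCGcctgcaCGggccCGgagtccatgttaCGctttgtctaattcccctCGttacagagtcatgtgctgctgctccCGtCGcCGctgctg
LMO4: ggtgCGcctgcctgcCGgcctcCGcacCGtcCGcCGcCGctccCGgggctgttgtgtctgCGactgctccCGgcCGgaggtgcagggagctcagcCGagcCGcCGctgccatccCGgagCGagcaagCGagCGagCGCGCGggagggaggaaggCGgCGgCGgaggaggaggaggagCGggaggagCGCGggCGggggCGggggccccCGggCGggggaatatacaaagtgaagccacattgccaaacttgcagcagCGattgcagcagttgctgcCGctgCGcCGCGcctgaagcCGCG
CG appears 21 times in the DNAJB4 window, 28 times in LRRC8B, 29 times in LRRC8D and 38 times in LMO4. Their ratios of observed to expected CG were 0.893, 0.873, 0.839 and 0.945, so the gene with a large shift and those with small ones all have CG-rich starts. A RefSeq promoter was found for 43 of the 46 members at 5 CPM or more. The ratio was at least 0.6 in 41 of the 43 (95.3%), against 85.9% of 9139 promoters of genes outside the run at that level and 49.0% of all 27305 promoters. CG itself, which reads the same on both strands, was present in 97.7% of the members' windows, 99.7% of the windows of genes outside the run at that level and 95.8% of all windows.

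Sequencing was deep, from 83230948 to 109018776 counts per sample, so that 3 counts, taken as the floor, equal 0.0272 to 0.0385 CPM. Vimentin (VIM), a mesenchymal marker of this line, ran from 1735 to 2941 CPM over the 12 samples. EPCAM, an epithelial marker, ran from 9.69 to 15.2 CPM, ERBB2 from 43.8 to 58.4 CPM and the progesterone receptor PGR from 0 to 2.98 CPM. The targeted gene GLI2 measured 10.4, 11.4 and 10.6 CPM in WT and 9.28, 8.23 and 10.1 CPM in GLI2_KO in DMSO. In paclitaxel it measured 6.42, 5.65 and 4.97 CPM in WT and 3.97, 4.14 and 4.39 CPM in GLI2_KO. Replicates did not overlap between genotypes, but most of the transcript remained (log2 fold change -0.23, adjusted p = 0.0253 in DMSO; -0.44, adjusted p = 2.4e-04 in paclitaxel; edgeR). A transcript count does not read the edited site.

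The shift was broad. Among the 46 members at 5 CPM or more, every fitted log2 fold change of GLI2_KO against WT was above 0 in DMSO and in paclitaxel. The median was 0.55 in DMSO (1.47-fold) and 0.55 in paclitaxel (1.46-fold), with quartiles of 0.40 and 0.63 in DMSO and 0.47 and 0.69 in paclitaxel. The 11328 rows at that level outside the run's span had medians of 0.007 and 0.016. The 1076 such rows of chromosome 1 had medians of 0.07 and 0.06. The 3 GLI2_KO replicates lay above the 3 WT replicates in 43 of the 46 members in DMSO and 45 in paclitaxel. The same held for 33.7% and 37.7% of all 11381 rows at that level; since the genotype chose the run, nothing is read from the contrast of these shares. All 92 tested members had a median of 0.53 in each treatment (1.44-fold and 1.45-fold), 85 and 82 of them lay above 0, and replicates stood apart upward in 65 and 66 (25.0% and 27.9% of all tested rows).

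Sample by sample, the picture was the same. The median log2 ratio of the 46 members to the WT mean of the same treatment was 0.53, 0.55 and 0.53 in the GLI2_KO samples in DMSO. It was 0.54, 0.56 and 0.57 in those in paclitaxel. Every WT sample lay within 0.011 of 0, so no single library carried the shift. The summed level of all 107 members was 2355 ± 6.99 CPM in WT and 3443 ± 36.3 CPM in GLI2_KO in DMSO (SD, n = 3). In paclitaxel it was 2201 ± 14.4 and 3183 ± 57.9 CPM. In bulk RNA, a larger share of cells with a high level and more RNA in every cell cannot be told apart.

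**Figure D1:**
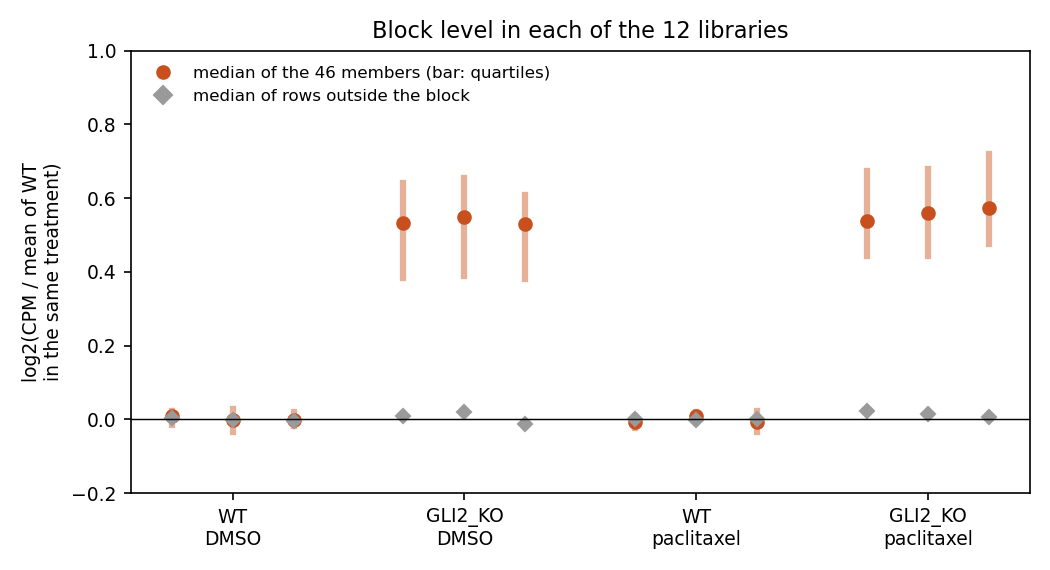
Log2 ratio of CPM to the WT mean of the same treatment (vertical axis) in each of the 12 samples, by group (horizontal axis); circles are medians of the 46 members at 5 CPM or more with bars for their quartiles, and diamonds are medians of rows outside the run. The circles of the 6 GLI2_KO samples lie between 0.53 and 0.57 and those of the 6 WT samples lie at about 0, as do all diamonds.

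The shift had a common centre but its members did not move by one exact amount. In DMSO, 32 of the 46 (69.6%) lay within 0.2 log2 units of the members' median. In paclitaxel 30 did (65.2%). Of the genes outside the run, 64.2% and 62.3% lay that close to their own median near 0. The median absolute deviation was 0.135 and 0.135 among the members and 0.136 and 0.146 among genes outside. The spread among the members was therefore of the size seen across other genes, around a centre that was higher by about the median shift. The median standard error of a member's log2 fold change was 0.04. Within 2 standard errors of the median lay 15 of the 46 members in DMSO and 19 in paclitaxel. Of the 11328 rows outside, 3874 and 3669 lay that close to their own median.

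DMSO and paclitaxel, which share no sample in these comparisons, gave similar shifts for most members. The 2 shifts differed by at most 0.2 in 40 of the 46 members, with a median difference of 0.006. Across these genes the shifts in the 2 treatments had a Pearson correlation of 0.83 and a Spearman correlation of 0.62. These correlations are across genes, which are not independent. Outside the run the values were 0.86 and 0.76 over 11328 genes.

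**Figure D2:**
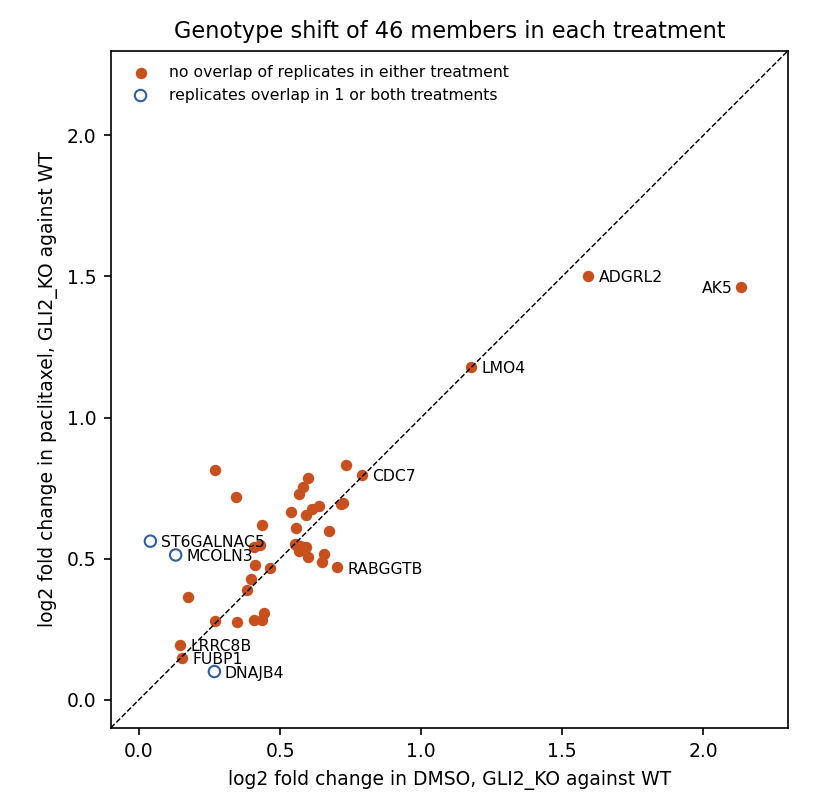
Log2 fold change of GLI2_KO against WT in DMSO (horizontal axis) and in paclitaxel (vertical axis), 1 point for each of the 46 members at 5 CPM or more; open circles mark the 3 members whose replicates overlapped in at least 1 treatment, and the dashed line marks equal values. All points lie above 0 on both axes; AK5, ADGRL2 and LMO4 lie farthest out, and ST6GALNAC5 and MCOLN3 lie near 0 in DMSO only.

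Vesicle and membrane traffic was the largest group by role, with 12 tested members, which include tubulin and centrosome proteins. Their replicates stood apart upward in 10 in DMSO and 11 in paclitaxel, with median log2 fold changes of 0.57 and 0.65. Of all tested rows, 25.0% and 27.9% stood apart upward. This list and those below come from a run chosen by genotype, so their counts and medians say nothing about a role. RABGGTB, at the start of the run, measured 93.6, 96.7 and 91.6 CPM in WT and 150, 151 and 158 CPM in GLI2_KO in DMSO. Its paclitaxel values were 89.4, 92.1 and 103 CPM in WT and 128, 129 and 136 CPM in GLI2_KO. The groups did not overlap, and the shift was larger in DMSO (0.70 ± 0.04, SE) than in paclitaxel (0.47 ± 0.04). SH3GLB1, the membrane-bending endophilin B1, measured 99.2, 101 and 96.1 CPM in WT against 148, 151 and 161 CPM in GLI2_KO in DMSO (0.64 ± 0.03; 0.69 ± 0.03 in paclitaxel). USP33, a deubiquitinase, stood 0.57 and 0.53 higher, and MIGA1, a mitoguardin that promotes fusion of mitochondria, 0.60 and 0.79 higher. TTLL7, which adds glutamate chains to tubulin, stood 0.72 and 0.70 higher, and ODF2L, a centrosome protein, 0.73 and 0.83 higher. MCOLN3 overlapped between genotypes in DMSO, as did GIPC2, a PDZ adaptor with 10 counts over the 3 WT and 9 over the 3 GLI2_KO samples in DMSO.

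Transcription and chromatin genes were shifted less on the median in DMSO, by 0.41, and by 0.55 in paclitaxel. Replicates stood apart upward in 9 of 10 tested members in each treatment (25.0% and 27.9% of all tested rows). BRDT and BARHL2 have no row. LMO4, a LIM-only adaptor that bridges transcription factors, was the widest mover. It measured 15.6, 13.9 and 15.8 CPM in WT and 34.6, 34.8 and 33.3 CPM in GLI2_KO in DMSO, a fold of 2.26 (1.18 ± 0.06). In paclitaxel it measured 14.7, 12.8 and 13.6 CPM against 33.3, 30.9 and 28.9 CPM (1.18 ± 0.06). GTF2B, the general factor TFIIB, measured 24.3, 23.1 and 24.9 CPM against 34.3, 36.6 and 35.2 CPM in DMSO, and its shift was 0.55 in both treatments. ZZZ3, a subunit of the ATAC acetyltransferase complex, stood 0.41 and 0.54 higher, and the zinc-finger gene ZNF644 0.43 and 0.55. FUBP1, which binds single-stranded DNA upstream of MYC, was among the smallest at 0.15 and 0.15, and GFI1, a transcriptional repressor, overlapped between genotypes in both treatments.

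RNA processing and ribosome assembly held 5 tested members, all apart upward in both treatments (25.0% and 27.9% of all tested rows). Their medians were 0.44 and 0.54. RPF1, a ribosome assembly factor, measured 67.3, 66.4 and 66.7 CPM in WT and 101, 103 and 95.4 CPM in GLI2_KO in DMSO (0.58 ± 0.03; 0.54 ± 0.03 in paclitaxel). ZNHIT6, which helps assemble box C/D small nucleolar particles, stood 0.44 and 0.62 higher. KYAT3, listed here because it shares 20.3% of its exon bases with the RNA-binding gene RBMXL1, encodes a kynurenine aminotransferase and stood 0.61 and 0.68 higher. Reads of such overlapping genes may not be separable.

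For cell cycle, DNA replication and meiosis, all 6 tested members stood apart upward in both treatments (25.0% and 27.9% of all tested rows). Medians of the list were 0.98 and 0.77. C1orf146 has no row. These medians include LMO4 of the transcription list (1.18 and 1.18) and MSH4 (1.34 and 0.52), which lay near the floor in WT in DMSO. SSX2IP and EVI5 are also in the traffic list. CDC7 (chr1:91500893-91525764) measured 45.3, 45.8 and 45.4 CPM in WT and 78.1, 81.7 and 76.1 CPM in GLI2_KO in DMSO, a fold of 1.73 (0.79 ± 0.04). With paclitaxel the values were 37.0, 35.8 and 33.8 CPM against 59.8, 63.6 and 61.9 CPM (0.80 ± 0.04). The genotypes did not overlap and the size was alike in both treatments. SSX2IP, a centriolar satellite protein, stood 0.55 and 0.61 higher, and EVI5, a TBC-domain protein at the far end of the run, 0.58 and 0.75. HFM1, a meiotic helicase, was low but shifted by far more: 0.203, 0.208 and 0.203 CPM in WT and 1.51, 1.84 and 2.32 CPM in GLI2_KO in DMSO (3.21 ± 0.20; 3.07 ± 0.20 in paclitaxel).

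Kinase and G protein signalling genes stood apart upward in all 9 tested members in each treatment (25.0% and 27.9% of all tested rows). Medians of the list were 0.67 and 0.67. ADGRL2 (chr1:81306160-81992436), an adhesion G protein-coupled receptor of the latrophilin family, measured 50.9, 51.7 and 50.3 CPM in WT and 149, 149 and 163 CPM in GLI2_KO in DMSO. In paclitaxel it measured 44.4, 43.8 and 41.7 CPM against 121, 122 and 124 CPM. These are folds of 3.01 and 2.83 (log2 1.59 ± 0.04 in DMSO), well past the median of the run. PKN2, a protein kinase, lay near the median: 105, 107 and 103 CPM against 156, 163 and 155 CPM in DMSO (0.59 ± 0.03), and 0.65 ± 0.03 in paclitaxel. BCL10 stood 0.67 and 0.60 higher. DDAH1, which breaks down asymmetric dimethylarginine and is no kinase, stood 0.56 and 0.55 higher. PRKACB, a catalytic subunit of protein kinase A, had the smallest shift of the list, 0.43 and 0.28.

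AK5, an adenylate kinase, had the largest shift of the 46 in DMSO. It measured 0.657, 0.672 and 0.610 CPM in WT and 2.97, 2.77 and 2.79 CPM in GLI2_KO in DMSO, a fold of 4.39 (2.13 ± 0.12). The paclitaxel values were 1.91, 2.16 and 1.89 CPM against 5.72, 5.67 and 5.07 CPM, a fold of 2.76 (1.46 ± 0.09). AK5 counts among the 46 only through GLI2_KO in paclitaxel, the group where it is highest. LINC02609 also missed 5 CPM in at least 1 group, and the other 44 reached it in every group.

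Among channels, the 3 LRRC8 genes lie next to each other, at chr1:89524836-89597864 (LRRC8B), chr1:89633072-89769903 (LRRC8C) and chr1:89821014-89936611 (LRRC8D). Their products join LRRC8A in the volume-regulated anion channel, through which swollen cells release chloride and small organic solutes. LRRC8B measured 38.3, 38.2 and 36.6 CPM in WT and 41.7, 42.0 and 41.4 CPM in GLI2_KO in DMSO, and 31.5, 31.6 and 33.7 against 36.9, 36.8 and 37.0 CPM in paclitaxel. LRRC8C measured 57.1, 56.4 and 56.4 against 74.3, 79.8 and 69.8 CPM in DMSO, and 38.9, 39.6 and 39.1 against 51.8, 54.3 and 51.9 CPM in paclitaxel. LRRC8D measured 36.4, 40.1 and 35.7 against 50.8, 53.3 and 50.7 CPM in DMSO, and 34.4, 33.3 and 34.9 against 47.0, 46.4 and 48.3 CPM in paclitaxel. None of the 3 overlapped between genotypes, yet the shift was unequal: 0.15 and 0.19 for LRRC8B, 0.40 and 0.43 for LRRC8C, and 0.47 and 0.47 for LRRC8D. The endolysosomal cation channels MCOLN2 and MCOLN3 stood 0.35 and 0.27 (MCOLN2) and 0.13 and 0.51 (MCOLN3) higher. The list as a whole, with 6 tested members, stood apart upward in 5 in DMSO and 6 in paclitaxel (medians 0.37 and 0.45). Of all tested rows, 25.0% and 27.9% stood apart upward. CLCA1 and CLCA4 have no row.

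Glycan, GPI-anchor and metabolic enzymes stood apart upward in 7 of 8 tested members in DMSO and 8 in paclitaxel. Of all tested rows, 25.0% and 27.9% stood apart upward. The enzyme list had medians of 0.63 and 0.55. SELENOF, a selenoprotein of the endoplasmic reticulum, measured 157, 151 and 156 CPM in WT and 248, 248 and 236 CPM in GLI2_KO in DMSO (0.65 ± 0.03; 0.52 ± 0.03 in paclitaxel). PIGK, the catalytic subunit of the GPI transamidase, stood 0.59 and 0.54 higher, and HS2ST1, a heparan sulfate sulfotransferase, 0.57 and 0.55. CTBS, the lysosomal chitobiase, stood 0.72 and 0.69 higher; it shares 39.1% of its exon bases with SPATA1. The list for cytoskeleton, chaperones and cilia had medians of 0.64 and 0.43, and stood apart upward in 5 of 6 tested members in DMSO and 4 in paclitaxel.

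**Figure D3:**
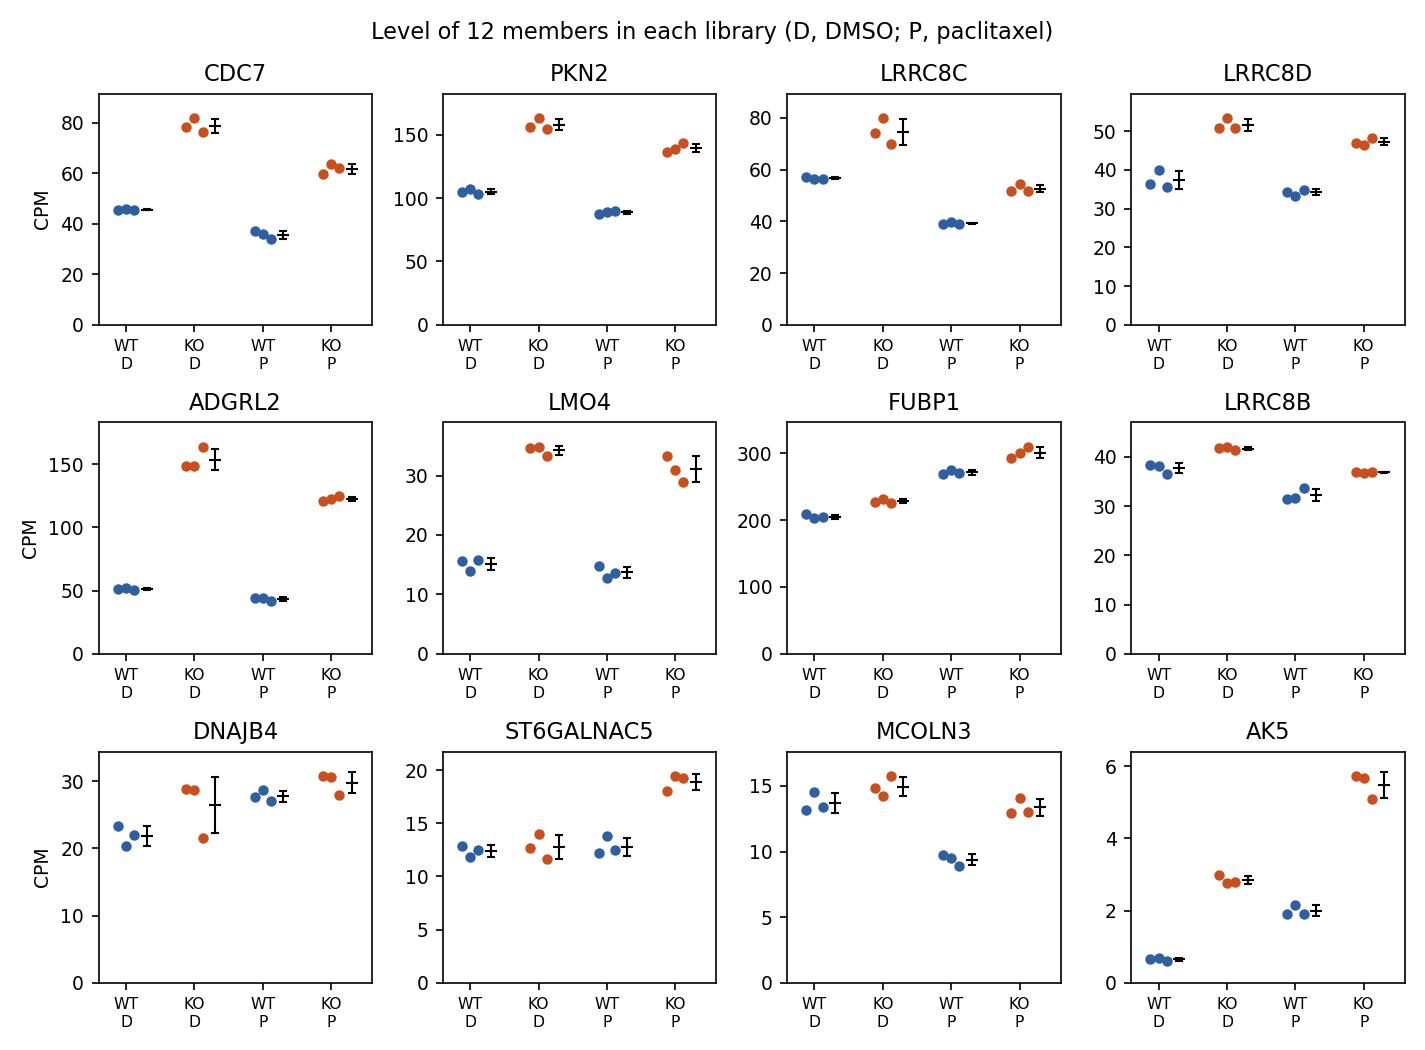
CPM (vertical axis, linear from 0, with its own scale in each panel) of 12 members in the 4 groups (horizontal axis); points are samples (blue, WT; orange, GLI2_KO) and the marks beside them are means with SD of 3. CDC7 and PKN2 stand apart by genotype in both treatments, FUBP1 and LRRC8B by little, DNAJB4 overlaps, and ST6GALNAC5 and MCOLN3 stand apart in paclitaxel only.

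A member was counted as escaping the shift in a treatment where its fitted change was 0 or lower or where the replicates of the genotypes overlapped. At 5 CPM or more, 43 of 46 escaped in neither treatment. The other 3 were ST6GALNAC5 and MCOLN3 in DMSO only and DNAJB4 in both. ST6GALNAC5 (chr1:76867441-77065711) encodes a sialyltransferase of gangliosides. It measured 12.9, 11.8 and 12.5 CPM in WT and 12.7, 13.9 and 11.6 CPM in GLI2_KO in DMSO, which overlapped. In paclitaxel it measured 12.2, 13.8 and 12.5 CPM in WT and 18.0, 19.4 and 19.2 CPM in GLI2_KO, which did not. Its shift was 0.04 ± 0.06 in DMSO and 0.56 ± 0.06 in paclitaxel, the latter at the run's median. MCOLN3 (chr1:85018082-85048499) measured 13.1, 14.5 and 13.4 CPM against 14.9, 14.3 and 15.7 CPM in DMSO, and 9.70, 9.48 and 8.90 CPM against 13.0, 14.1 and 13.0 CPM in paclitaxel. Its shift was 0.13 ± 0.06 and 0.51 ± 0.06, so it too joined the run in paclitaxel.

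DNAJB4, a heat shock protein 40 co-chaperone, measured 23.4, 20.4 and 21.9 CPM in WT and 28.9, 28.7 and 21.6 CPM in GLI2_KO in DMSO. The overlap rests on the third GLI2_KO replicate: without it the log2 fold change is 0.40, against 0.27 with it. In paclitaxel DNAJB4 measured 27.6, 28.6 and 27.0 CPM against 30.7, 30.6 and 28.0 CPM, a shift of 0.10 ± 0.10. NEXN, an actin-binding protein, FUBP1 and DNAJB4 follow each other at chr1:77888513-77943895, chr1:77944055-77979110 and chr1:77979175-78017964, with gaps of 159 and 64 bases. FUBP1 lies on the minus strand and starts 64 bases from DNAJB4, so the DNAJB4 window printed above spans both starts. NEXN measured 52.8, 54.1 and 51.8 CPM against 60.2, 63.1 and 55.7 CPM in DMSO (0.17 ± 0.05; 0.36 ± 0.05 in paclitaxel). FUBP1 measured 209, 203 and 205 CPM against 227, 231 and 226 CPM in DMSO, and 269, 276 and 270 CPM against 293, 301 and 309 CPM in paclitaxel. Counted from the smallest of the 46 shifts in DMSO, FUBP1, NEXN and DNAJB4 rank 4, 5 and 6, and in paclitaxel DNAJB4, FUBP1 and NEXN rank 1, 2 and 9. The members at that level before the trio, MIGA1 and USP33, stood 0.60 and 0.57 higher in DMSO, and the next ones after it, ADGRL2 and TTLL7, 1.59 and 0.72 higher. The trio was picked after these values were seen, and why it moved less was not tested.

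Over all 92 tested members, 27 escaped in DMSO, 26 in paclitaxel, 18 in both and 57 in neither. Of the 18, 12 have a symbol: TPI1P1, MIR7156, RPL17P6, NEXN-AS1, DNAJB4, GIPC2, BCL10-AS1, CLCA4-AS1, LINC02801, RNU6-125P, PHKA1P1 and GFI1. Apart from DNAJB4, these are pseudogenes, noncoding RNAs or genes with a mean under 1 CPM. RPL17P6, a ribosomal protein pseudogene, measured 1.77, 1.81 and 1.93 CPM in WT and 2.01, 1.93 and 1.59 CPM in GLI2_KO in DMSO. In paclitaxel it was the 1 tested member whose replicates stood apart downward, with 2.02, 1.92 and 1.81 CPM in WT and 1.63, 1.74 and 1.44 CPM in GLI2_KO. Its shift was 0.00 ± 0.12 in DMSO and -0.26 ± 0.12 in paclitaxel; reads of such copies can be shared with the parent gene. NEXN-AS1, antisense to NEXN, had -0.17 ± 0.14 and 0.20 ± 0.11, and whether counting used strand is unknown from the sources used here. LRRC8D-DT, a divergent transcript at LRRC8D, was the 1 tested member whose replicates stood apart downward in DMSO: 0.270, 0.257 and 0.395 CPM in WT and 0.256, 0.215 and 0.178 CPM in GLI2_KO. Its log2 fold change was -0.51 ± 0.28 in DMSO and 0.40 ± 0.25 in paclitaxel, so the direction did not hold between treatments.

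The median shift differed between gene classes and levels, with no test. Protein-coding members (54 tested) had medians of 0.58 and 0.55, pseudogenes (8) 0.22 and 0.35, and the other 30, noncoding or without a match in GENCODE, 0.38 and 0.42. Members under 1 CPM in every group (28) had medians of 0.35 and 0.42, the 18 with their highest group mean from 1 to under 5 CPM, 0.59 and 0.52, and the 46 at 5 CPM or more, 0.55 and 0.55, so the medians had no single order with level. Class and level overlap here and were not separated. Among low members, a few were shifted far more than the run. Their values come from the contrast that chose the run and are descriptions. ST6GALNAC3, a sialyltransferase gene, measured 0.377, 0.366 and 0.237 CPM in WT and 3.05, 3.02 and 3.62 CPM in GLI2_KO in DMSO (3.30 ± 0.17; 2.38 ± 0.17 in paclitaxel). PTGFR, the prostaglandin F receptor, measured 0.164, 0.134 and 0.192 CPM against 0.692, 0.612 and 0.700 CPM (2.02 ± 0.22; 2.34 ± 0.20 in paclitaxel). CLCA2, a calcium-activated chloride channel regulator, had 0 counts over the 3 WT samples in DMSO and 19 over the 3 GLI2_KO samples, at least 6.65-fold higher against a floor of 3 counts over the group. LPAR3, a lysophosphatidic acid receptor, had 3 and 14 counts, a ratio of 4.90 with a 95% exact interval of 1.37 to 26.6 for counting error only. CLCA2, with 10 counts in WT in paclitaxel, could not pass the filter without its counts in GLI2_KO in paclitaxel. LPAR3 could not pass it without its paclitaxel samples.

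The 15 members that were not tested held between 31 and 93 counts each over all 12 samples. Together they had 98 counts in WT and 188 in GLI2_KO in DMSO, and 217 and 348 in paclitaxel. Over all 107 members, tested or not, the GLI2_KO mean was above the WT mean in 96 in DMSO, below it in 7 and equal in 4. In paclitaxel it was above in 94 and below in 13.

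By position, the span was split into 4 stretches of equal length, which held 10, 3, 17 and 16 members at 5 CPM or more. Their median shifts were 0.49, 0.72, 0.57 and 0.44 in DMSO and 0.53, 0.70, 0.61 and 0.48 in paclitaxel. No stretch returned to the level of genes outside. The ends set by the rule are not the ends of the raised stretch. At the lower end, ACADM, just outside, stood 0.69 and 0.52 higher, next to RABGGTB at 0.70 and 0.47. At the upper end, RPL5, just outside, stood 0.37 and 0.37 higher, next to EVI5 at 0.58 and 0.75.

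Beyond the lower end, 5 rows at 5 CPM or more from FPGT to ACADM had medians of 0.69 and 0.61. The 20 rows before FPGT had medians of 0.14 and 0.17. NEGR1, the last of them, stood at -0.39 and -0.29 and ends 1.92 Mb before FPGT begins. Beyond the upper end, 9 rows from RPL5 to BCAR3 had medians of 0.44 and 0.41 (lowest -0.01 and 0.25), and the next 16 rows had -0.09 and -0.07. Those 16 were not uniform: ARHGAP29 stood at -0.43 and -0.31 and F3 at -0.31 and -0.62, while SNX7 stood at 0.58 and 0.51 and FRRS1 at 0.35 and 0.52, as high as the run. BCAR3 ends at 93847150 with 0.53 and 0.46, and DNTTIP2 begins at 93866283 with -0.09 and -0.15, so the medians at this side part between genes 19.1 kb apart. These cuts were placed after the values were seen and are descriptions. No cause of the raised stretch was tested.

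**Figure D4:**
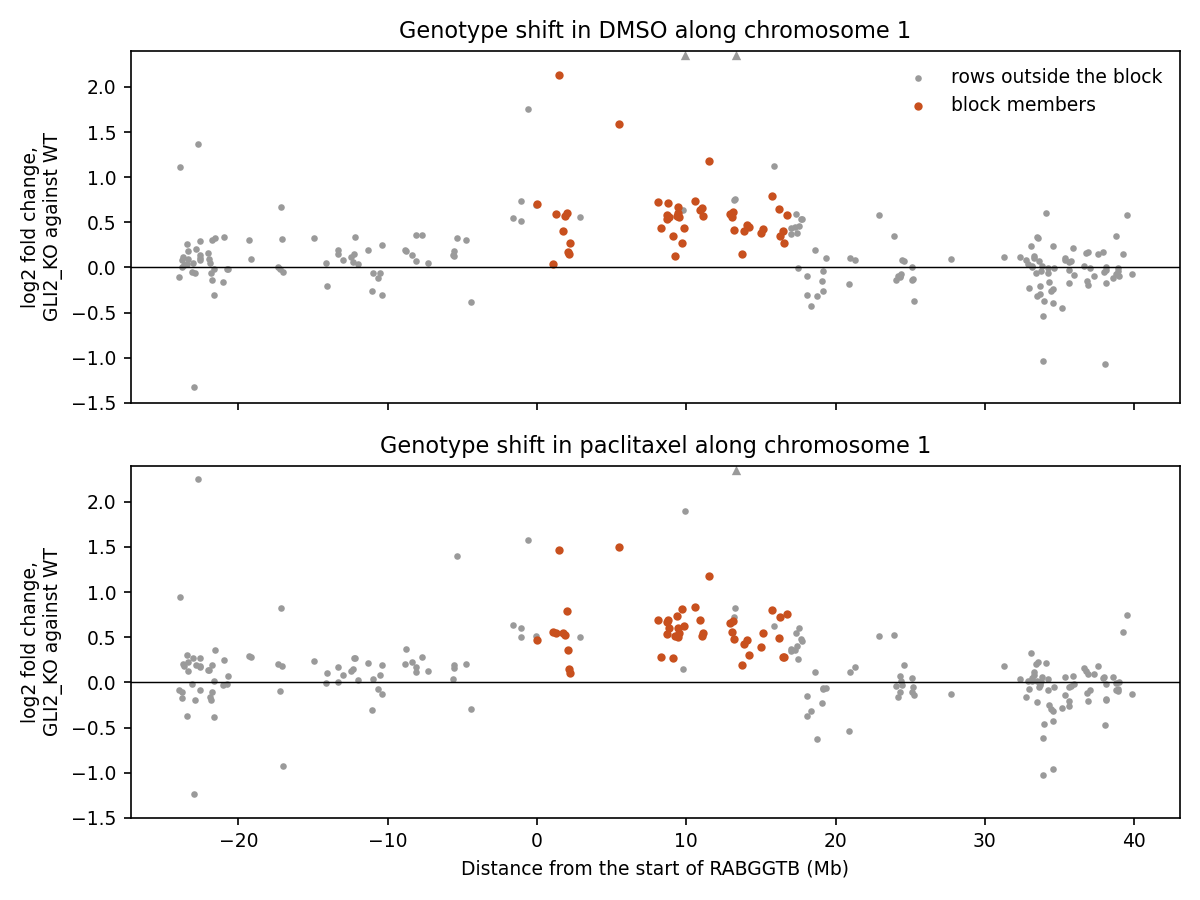
Log2 fold change of GLI2_KO against WT (vertical axis) for rows at 5 CPM or more along chromosome 1, by distance in Mb from the start of RABGGTB (horizontal axis), in DMSO (upper panel) and in paclitaxel (lower panel). Orange points are members, grey points are other rows, including rows inside the span that the rule leaves out, and triangles mark values beyond the axis. The orange points lie above 0 in both panels, and grey points next to either end lie at a similar height.

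Genes outside the run whose products work with its members were tested for the same genotype difference, to set the members beside their own complexes. Of 54 such partners, 15 were higher, 21 lower and 18 did not pass in DMSO, and 15, 20 and 19 in paclitaxel (edgeR, adjusted p under 0.05). Across all tested rows 22.0% were higher and 19.6% lower in DMSO, and 23.4% and 22.2% in paclitaxel. Among rows at 5 CPM or more outside the run's span the shares were larger, 30.8% and 27.6% in DMSO and 33.2% and 28.0% in paclitaxel. The partners' median log2 fold changes were -0.06 and -0.03, near those of all genes. Of the 36 calls in DMSO, 30 held in all alternatives run, and 29 of the 35 in paclitaxel.

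CHML and CHM, the escort proteins that present Rab to the enzyme holding RABGGTB, moved the other way. CHML measured 262 ± 8.61 CPM in WT and 180 ± 4.46 CPM in GLI2_KO in DMSO (SD, n = 3 each), and fell by 0.55 on the log2 scale (SE 0.03, adjusted p = 4.3e-13, edgeR); in paclitaxel it fell by 0.54 (adjusted p = 6.0e-13). CHM fell by 0.26 (adjusted p = 9.3e-07) and 0.11 (adjusted p = 0.0153, past 0.05 in 3 of 19 alternatives). RABGGTA, the other partner of RABGGTB listed, did not pass in either treatment (-0.06 and 0.05). For CDC7, the replicative helicase subunit MCM6, which belongs to the complex that the kinase acts on, fell from 202 ± 5.39 to 135 ± 1.62 CPM in DMSO (-0.57, adjusted p = 2.9e-14). MCM2 fell by 0.15 and 0.41 and MCM4 by 0.15 and 0.40, while DBF4, an activator of CDC7, did not pass in either treatment (0.05 and -0.01). DBF4B, the other activator listed, was lower in both treatments (-0.28, adjusted p = 1.6e-05, and -0.16, adjusted p = 0.00536, edgeR).

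Partners of PIGK, LMO4 and BCL10 moved upward where they moved, by less than the run in most. The GPI transamidase subunits PIGT (0.31 and 0.21), PIGU (0.26 and 0.28) and GPAA1 (0.34 and 0.30) rose in both treatments, with adjusted p from 6.1e-09 to 4.1e-06, and PIGS did not pass. SSBP2, a cofactor of LIM complexes, rose by 0.52 and 0.46 (adjusted p = 2.1e-05 and 1.0e-04), SSBP3 by 0.32 and 0.36, and LDB1 by 0.12 and 0.14. MALT1, the protease that works with BCL10, rose by 0.16 and 0.18 (adjusted p = 1.4e-04 and 3.7e-05). LRRC8A, the subunit every LRRC8 channel needs, rose by 0.19 in DMSO (adjusted p = 7.2e-06) and measured -0.07 in paclitaxel (adjusted p = 0.0498, past 0.05 in 13 of 19 alternatives). LRRC8E, the other LRRC8 partner, went the other way in DMSO, at -0.25 (adjusted p = 0.00146, edgeR), and did not pass in paclitaxel (-0.006). Of the 9 tested partners of ZZZ3, 2 were higher and 4 lower in DMSO, and 3 and 4 in paclitaxel, with medians of -0.07 and 0.02. DR1, the highest of them, rose by 0.46 and 0.60, and lies in the raised stretch between RPL5 and BCAR3.

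Paclitaxel moved members of the run in both directions. In WT cells, 27 of the 92 tested members rose and 29 fell (edgeR, adjusted p under 0.05), against 34.6% and 32.1% of all tested rows. In GLI2_KO cells, 36 rose and 32 fell, against 33.0% and 32.2%. This split depends on scaling: with library totals it was 43 and 17 in WT and 47 and 17 in GLI2_KO, and upper-quartile factors gave 41 and 21 in WT and 45 and 18 in GLI2_KO. The median of all genes itself moved by 0.16 (WT) and 0.18 (GLI2_KO) with library totals. At 5 CPM or more, 6 rose and 26 fell in WT (20.8% and 55.9% of all such rows), and 13 rose and 27 fell in GLI2_KO (21.4% and 55.5%). The members' medians, -0.13 and -0.15, lay next to those of genes outside, -0.14 and -0.14.

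Among members at 5 CPM or more, TTLL7 fell most in both genotypes. It measured 16.1, 17.3 and 16.5 CPM in DMSO and 9.33, 9.53 and 9.09 CPM in paclitaxel in WT, and 26.9, 27.5 and 28.1 CPM against 15.8, 13.8 and 15.7 CPM in GLI2_KO. TTLL7 thus fell by 0.84 (SE 0.05, adjusted p = 1.6e-12) and 0.87 (adjusted p = 2.3e-13) on the log2 scale. KYAT3 fell by 0.71 and 0.64, LRRC8C by 0.53 and 0.50, HS2ST1 by 0.47 and 0.50 and CTBS by 0.47 and 0.49. ODF2L fell by 0.51 and 0.41 and MCOLN2 by 0.40 and 0.47. Each of these falls kept its direction under both of these scalings in the comparison that named it. CDC7 fell by 0.36 and 0.35 (adjusted p = 8.8e-09 and 6.7e-09), and by 0.20 and 0.17 with library totals.

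FUBP1 rose from 205 ± 2.90 to 272 ± 3.55 CPM in WT and from 228 ± 2.68 to 301 ± 8.37 CPM in GLI2_KO (SD, n = 3 each). Its log2 fold change was 0.40 in each (adjusted p = 7.0e-12 and 8.2e-12). DNAJB4, its neighbour, rose by 0.34 in WT (adjusted p = 0.0129; 0.29 and 0.0530 without the second WT sample in DMSO) and measured 0.17 in GLI2_KO (adjusted p = 0.156). The value in GLI2_KO passed with library totals (0.35, adjusted p = 0.00671), upper-quartile factors (0.30, 0.0179) and a minimum count of 50 (0.23, 0.0402), and in a paired fit over neighbouring library numbers (0.18, adjusted p = 0.00190, edgeR). RPAP2, a phosphatase of RNA polymerase II, rose by 0.16 and 0.17, and GTF2B by 0.14 and 0.14. AK5 rose by 1.62 in WT and 0.95 in GLI2_KO (adjusted p = 2.7e-11 and 1.6e-09). ST6GALNAC5, NEXN, SYDE2 and MIGA1 rose in GLI2_KO by 0.57, 0.22, 0.21 and 0.19, and measured 0.04, 0.03, 0.05 and 0.01 in WT; these 4 values in WT became 0.20, 0.19, 0.20 and 0.16 with library totals and then passed the threshold.

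Low members moved upward with paclitaxel. Of the 28 tested members under 1 CPM in every group, 14 rose and 0 fell in WT, and 15 rose and 0 fell in GLI2_KO. Among all 7335 tested rows that low, 48.2% rose and 3.15% fell in WT, and 43.5% and 3.86% in GLI2_KO. The filter can keep a low row through its paclitaxel samples alone, and such a row can then only rise. ENSG00000289582 is one, with 0 counts in DMSO in both genotypes and 34 (WT) and 93 (GLI2_KO) in paclitaxel. The same selection acts on all low rows, so nothing is read from the direction. MSH4, a meiotic crossover factor above that level in paclitaxel, measured 0.0869, 0.0855 and 0.0452 CPM in DMSO and 2.23, 2.03 and 1.83 CPM in paclitaxel in WT. It rose by 4.77 in WT and 3.95 in GLI2_KO (adjusted p = 2.9e-15 and 1.7e-15). LPAR3 went from 3 to 151 counts in WT, a ratio of 54.9 (95% exact interval 18.4 to 269, counting error only). It too could pass the filter only with paclitaxel samples.

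**Figure D5:**
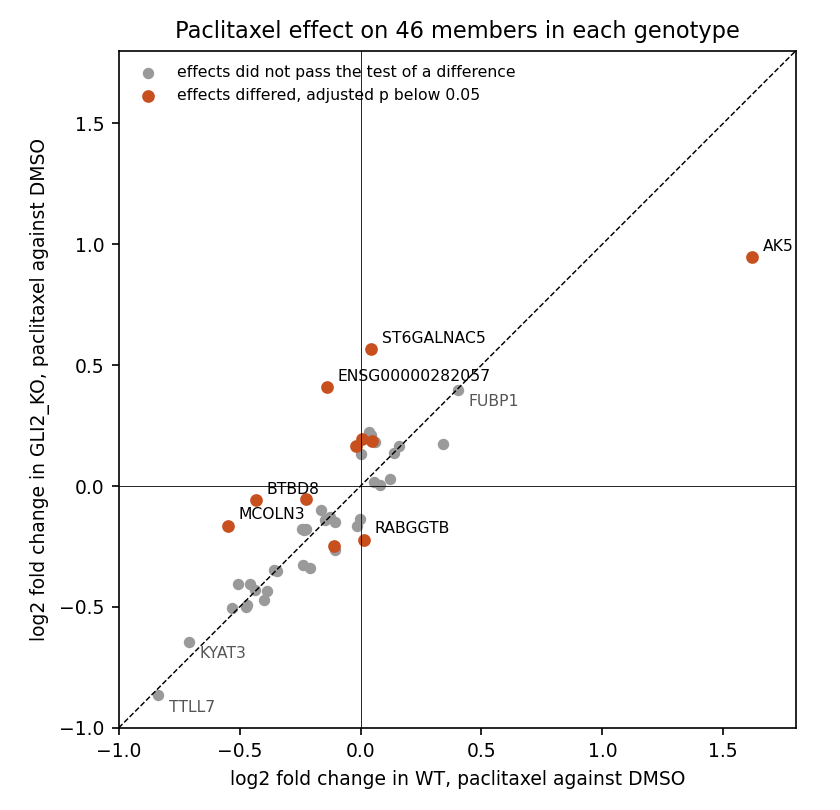
Log2 fold change of paclitaxel against DMSO in WT (horizontal axis) and in GLI2_KO (vertical axis), 1 point for each of the 46 members at 5 CPM or more; orange points passed the test of a difference between the genotypes (adjusted p under 0.05, edgeR) and the dashed line marks equal values. TTLL7 and KYAT3 lie lowest, FUBP1 rises by 0.40 in both, and AK5, ST6GALNAC5 and MCOLN3 lie off the line.

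The difference between the genotypes in the paclitaxel effect equals the difference between the treatments in the genotype shift, so it tests where the shift was not the same in DMSO and paclitaxel. It passed in 14 of the 92 tested members (edgeR, adjusted p under 0.05). In 8 the shift was larger in paclitaxel and in 6 smaller, against 6.56% and 6.93% of all tested rows. When single samples were left out, these counts ran from 4 to 10 and from 2 to 7; the lowest came without the first GLI2_KO sample in DMSO and without the second WT sample in paclitaxel. ST6GALNAC5 (0.52 ± 0.09, adjusted p = 3.2e-04) and MCOLN3 (0.38 ± 0.08, adjusted p = 0.00262) gained their shift in paclitaxel by different routes: ST6GALNAC5 rose in GLI2_KO, and MCOLN3 fell in WT by 0.55 and in GLI2_KO by 0.16. The smaller MCOLN3 fall turned to 0.01 with library totals and was -0.04 with upper-quartile scaling and -0.10 with a minimum count of 50, none past the threshold. It also missed the threshold without the third GLI2_KO sample in DMSO (-0.13, adjusted p = 0.0571) or the first GLI2_KO sample in paclitaxel (-0.15, adjusted p = 0.0511). AK5 (-0.67 ± 0.16, adjusted p = 0.00504) and RABGGTB (-0.23 ± 0.06, adjusted p = 0.00991) had the larger shift in DMSO. RABGGTB measured 0.01 with paclitaxel in WT and fell by 0.22 in GLI2_KO (adjusted p = 6.7e-05). With library totals it rose by 0.17 in WT (adjusted p = 0.00222) and measured -0.04 in GLI2_KO (adjusted p = 0.38); with upper-quartile factors the values were 0.15 (adjusted p = 0.00752) and -0.10 (adjusted p = 0.0551). BTBD8 (0.37 ± 0.10, adjusted p = 0.0133), MIGA1 (0.19 ± 0.05), ZNHIT6 (0.18 ± 0.05) and EVI5 (0.17 ± 0.06) had the larger shift in paclitaxel. For the other 78 tested members no difference passed, which does not show that the shift was equal; at 5 CPM or more it lay within 0.2 in 40 of 46, as given above.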

How the data were processed

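Members and gene lists were chosen with earlier results of these data known. The submitters deposited a table of whole-number counts per gene and a table of normalized signal, which equals the deposited counts divided by 1 size factor per sample and was not used in tests. Trim Galore 0.6.7, STAR, DESeq2 1.36.0 and hg38 are named in the submitters' processing notes, without roles; counter, annotation and strand: not given in the sources used here. RNA was isolated with QIAzol, per the labels. Columns not used numbered 0.

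Groups follow the sample titles; replicates were numbered by accession order. The titles also carry library numbers, of which each neighbouring pair holds 1 DMSO and 1 paclitaxel sample of a genotype; the labels do not say that a pair shares a culture. Deviations from the group means correlated by 0.14 to 0.32 within the 6 pairs, over rows at 5 CPM or more. Counts of 25049 genes were fitted with edgeR 4.0.16 (R 4.3.3, limma 3.58.1): TMM factors, filterByExpr with a minimum count of 10 (21974 genes left), robust quasi-likelihood F tests over 12 samples with 8 residual degrees of freedom, 5 contrasts, two-sided, Benjamini-Hochberg adjustment over all tested genes at 0.05. SE was taken as the size of the log2 fold change divided by sqrt(F). No set test was run. Coordinates and overlaps come from GENCODE 29, which matched 99 of the 107 members. The script was tested on simulated data. Alternatives were library totals, upper-quartile and RLE factors, DESeq2 1.42.0, other filters, only the compared groups, leaving out each sample and, for the paclitaxel effects and their difference, library pairs as a block.

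Named genes were members that escaped in both treatments, the 8 largest and 4 smallest mean genotype shifts at 5 CPM or more, the 6 largest paclitaxel rises and falls with replicates apart, up to 12 differences of effect, the 3 highest members of each list and the rows next to each end. All 54 partners were tested and counted, but only some are named, picked with their values known. Other members named, such as HFM1, PTGFR, CLCA2, LPAR3, MSH4, LRRC8D-DT, BCL10 and PRKACB, were picked after their values were seen. Intervals and floors cover counting error only.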

Additional observations from a re-analysis of the deposited data

Results flagged for a closer look

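For 14 members the genotypes differed in their response to paclitaxel, by edgeR's test of that difference (GLI2_KO minus WT in the log2 effect, ± SE). The 12 with the largest difference come first; SELENOF (-0.14 ± 0.04, adjusted p = 0.0311) and ZZZ3 (0.14 ± 0.04, adjusted p = 0.0383) had the smallest. The higher values in GLI2_KO were those of ENSG00000282057 (0.55 ± 0.08, adjusted p = 1.2e-04), which shares 10.6% of its exon bases with DDAH1, ST6GALNAC5 (0.52 ± 0.09, adjusted p = 3.2e-04), MCOLN3 (0.38 ± 0.08, adjusted p = 0.00262), BTBD8 (0.37 ± 0.10, adjusted p = 0.0133), MIGA1 (0.19 ± 0.05, adjusted p = 0.0206), ZNHIT6 (0.18 ± 0.05, adjusted p = 0.0212) and EVI5 (0.17 ± 0.06, adjusted p = 0.0409). The lower ones were those of ENSG00000225605 (-4.27 ± 1.42, adjusted p = 0.0491), ST6GALNAC3 (-0.91 ± 0.26, adjusted p = 0.0189), ENSG00000230498 (-0.85 ± 0.27, adjusted p = 0.0362), AK5 (-0.67 ± 0.16, adjusted p = 0.00504) and RABGGTB (-0.23 ± 0.06, adjusted p = 0.00991).

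ENSG00000225605 had 0 counts over the WT samples in DMSO, so its fitted value is no bound. Its call was lost in 13 of 17 alternatives (adjusted p up to 0.122): with library totals, in the paired fit over neighbouring library numbers (adjusted p = 0.0586) and when any 1 of 11 samples was left out. The EVI5 call was lost in 11 of 19 (up to 0.124) and that of ENSG00000230498 in 8 of 19 (up to 0.112). ZNHIT6 lost its call without the first GLI2_KO sample in DMSO (adjusted p = 0.0744), the first or second WT sample in DMSO (0.0644 and 0.0601), or the first or second WT sample in paclitaxel (0.0601 and 0.0698). MIGA1 lost it without the first GLI2_KO sample in DMSO (0.0744), the third WT sample in DMSO (0.0638) or the third GLI2_KO sample in paclitaxel (0.0551). ST6GALNAC3 lost it without the third WT sample in DMSO (0.0747) or the second in paclitaxel (0.0554). The calls of ENSG00000282057, ST6GALNAC5, MCOLN3, BTBD8, AK5 and RABGGTB held in all 19 alternatives run for each.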

How the results depend on the processing

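One called value changed sign, the fall of MCOLN3 with paclitaxel in GLI2_KO, which was 0.0131 with library totals. The median shift of the tested members in DMSO, 0.53, was 0.50 with library totals, 0.51 with upper-quartile scaling, 0.55 with a minimum count of 50, without a filter or with members at 5 CPM or more only, 0.56 with the 9 left-out rows put back and 0.58 with protein-coding members only; leaving out single samples gave 0.50 to 0.56. In paclitaxel, 0.53, it was 0.50 with upper-quartile factors, and 0.53 to 0.55 without single samples. Members past edgeR's threshold for the genotype, described only, numbered 58 to 62 higher in DMSO and 62 to 66 in paclitaxel without single samples, with 0 lower. Upper-quartile factors gave 1 lower in paclitaxel. Of all tested rows, 22.0% passed upward in DMSO and 23.4% in paclitaxel in the main fit. Since the genotype chose the run, nothing is read from these counts. For paclitaxel in WT, 43 (library totals) and 41 (upper-quartile factors) rose, and 17 fell with library totals; single samples left out gave 23 to 27 and 27 to 29. In GLI2_KO, 17 (library totals) and 18 (upper-quartile factors) fell; single samples left out gave 31 to 36 and 28 to 33. Over all tested rows, library totals left 4295 falls in WT (7047 with TMM) and 3831 in GLI2_KO (7077). The difference of effects passed upward in 4 to 10 members: 4 without the first GLI2_KO sample in DMSO, and 5 without the third GLI2_KO sample in paclitaxel, any WT sample in DMSO, or the first or second WT sample in paclitaxel. It passed downward in 2 to 7: 2 without the second WT sample in paclitaxel, and 3 without the first GLI2_KO or the third WT sample in DMSO. With upper-quartile or library-total scaling the cause of a moved count was not tested. A fit with pairs of neighbouring library numbers as replicate block, chosen after seeing the data, gave 26 rises and 29 falls in WT, 36 and 32 in GLI2_KO and 8 and 6 differences; among the named genes it changed 2 calls, those of DNAJB4 in GLI2_KO (0.18) and ENSG00000225605 (-4.28). At these depths, members under 1 CPM are limited by counting error.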
